A study of Mus musculus with 18 samples.

Results

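The 10 genes described here are *Mki67*, *Top2a*, *Cdk1*, *Ccnb1*, *Ccnb2*, *Ccna2*, *Birc5*, *Bub1*, *Rrm2* and *Mcm5*, a set of cell cycle genes chosen by symbol from the 55453 symbols that both count tables hold. They were read in bulk RNA-seq of 18 whole mouse aortae from an experiment on the CArG box of the *Tspan2* promoter, the site at which serum response factor binds. In the HDR experiment, Cas9, a guide RNA and a single-stranded repair template had substituted adjacent bases of this box. The HDR groups were 5 wild-type (WT) and 5 homozygous Tspan2 sg/sg libraries from mice of 12 weeks with a C57BL/6 strain label. In the PE2 experiment, prime editor 2 (a Cas9 nickase joined to a reverse transcriptase) and a pegRNA had placed a C-to-G substitution in the same box. The PE2 groups were 4 WT and 4 homozygous Tspan2 peg/peg libraries from mice of 8 weeks with the strain label FVB/N/B6(Cg)-Tyrc-2J/J. The labels list 3 females and 2 males in each HDR group, 3 females and 1 male (replicate 4) in the PE2 WT group, and 4 females in the peg/peg group. Both edits were germline alleles from injected zygotes, present in every cell of a homozygote, and the methods trace founders of either edit to the same cross and then breed them to C57BL/6J, whereas the strain labels differ. The methods state that each aorta was freed of the tissue around it. The HDR columns give the genotype but not the sex or the litter, and nothing in the labels ties any library to a founder.

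Cells that leave quiescence pass from G1 into S phase, in which the MCM helicase unwinds DNA and ribonucleotide reductase supplies deoxynucleotides, and then through G2 into mitosis, which CDK1 drives with cyclins A2 and B. Transcripts of the G2 and mitosis genes are nearly absent from resting cells, so that their level in a tissue is widely read as a gauge of dividing cells. The smooth muscle, endothelial cells and fibroblasts of an adult aorta divide rarely. In a bulk library, fewer dividing cells and less RNA per dividing cell cannot be told apart.

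Depth per library was 17290992 to 24880385 counted reads in the HDR table and 38820265 to 44895615 in the PE2 table. *Tspan2* itself, the check of the genotype labels, differed between mutant and WT by -3.07 ± 0.27 on the log2 scale in the HDR experiment (edgeR, adjusted p = 0.00226) and by -3.45 ± 0.29 in the PE2 experiment (adjusted p = 0.0292), and its groups did not overlap in either. The smooth muscle markers *Myh11*, *Acta2* and *Tagln* were at 2325 CPM (counts scaled to library size, TMM-normalized over all 18 libraries) or more in every library, as the tissue label requires. PE2 peg/peg replicate 3 stood apart from the other libraries in 5 cardiac muscle markers, which summed to 1027 CPM there and to between 4.45 and 122.9 CPM in the other 17 libraries. Its 6 skeletal muscle markers summed to 1129 CPM, against 5.58 to 126.6 CPM elsewhere, the highest of both ranges being HDR WT library 3. The counts and medians of the 10 genes, and those of the G2 and mitosis list, are given with and without this library where it enters.

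The promoters of these genes were searched only for motifs known from promoters of cell cycle genes, the kind of gene chosen here. The windows they are set against were not matched for gene type or base composition, so an excess is a description and no test. RefSeq gives a window of 250 bases before the start site for 9 of the 10 genes, *Ccna2* being the exception. The CCAAT box, searched as CCAAT on both strands, was present in 8 of the 9 windows, against 33.8% of all 32851 windows searched. At least 2 copies were present in 7 of the 9, against 10.1%. The windows of 1 chromosome, which carries none of the 10 genes, were left out of the search. The cell cycle homology region (CHR), searched as TTTGAA, was present in 4 windows, those of *Mki67*, *Ccnb2*, *Cdk1* and *Top2a*, against 16% of all. Its variant TTCGAA was present in the window of *Top2a* alone, against 1.34%. E2F letters, searched as TTTCCCGC, TTTCGCGC, TTTGGCGC or TTTGCCGC, were present in *Cdk1* and *Mcm5*, against 1.86% of all. The window of *Birc5* held none of these letters. A match is a description of the letters and no evidence of binding. The last 160 bases before the start site (RefSeq, GRCm38.p6) are shown for 5 genes that differ in the motifs they carry, read 5′ to 3′ on the strand of the gene, with every motif match in capitals. They lie at chr10:69352913-69353072 (*Cdk1*, reverse strand), chr11:99024190-99024349 (*Top2a*, reverse), chr7:135716380-135716539 (*Mki67*, reverse), chr9:70421555-70421714 (*Ccnb2*, reverse) and chr8:75109349-75109508 (*Mcm5*, forward).
Cdk1: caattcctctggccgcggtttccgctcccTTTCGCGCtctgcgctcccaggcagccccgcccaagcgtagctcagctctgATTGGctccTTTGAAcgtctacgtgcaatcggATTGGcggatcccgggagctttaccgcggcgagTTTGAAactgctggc
Top2a: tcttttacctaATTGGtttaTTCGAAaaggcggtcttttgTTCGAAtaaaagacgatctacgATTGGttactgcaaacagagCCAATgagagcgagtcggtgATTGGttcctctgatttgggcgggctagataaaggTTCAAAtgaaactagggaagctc
Mki67: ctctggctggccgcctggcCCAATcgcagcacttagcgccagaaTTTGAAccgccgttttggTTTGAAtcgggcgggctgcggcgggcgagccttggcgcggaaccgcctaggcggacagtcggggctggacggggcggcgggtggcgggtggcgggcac
Ccnb2: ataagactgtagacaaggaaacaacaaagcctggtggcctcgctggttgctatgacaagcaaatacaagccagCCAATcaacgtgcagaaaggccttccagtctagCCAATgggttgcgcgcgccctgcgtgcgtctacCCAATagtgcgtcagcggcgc
Mcm5: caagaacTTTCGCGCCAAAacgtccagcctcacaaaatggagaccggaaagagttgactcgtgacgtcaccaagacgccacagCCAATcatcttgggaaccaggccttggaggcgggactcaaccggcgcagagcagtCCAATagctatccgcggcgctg
In *Cdk1* the capitals are, in order, an E2F match, a CCAAT box read on the opposite strand, a CHR, a further CCAAT box on the opposite strand and a further CHR. In *Top2a* the TTCGAA copies stand between CCAAT boxes, and the match nearest the start site is a CHR on the opposite strand. The copies of the CHR in *Mki67* follow a CCAAT box. *Ccnb2* carries 3 CCAAT boxes in this stretch, and its CHR matches lie outside it. In *Mcm5* the first capitals are overlapping E2F matches on opposite strands, TTTCGCGC and GCGCCAAA, followed by CCAAT boxes, and no CHR was found.

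Per kilobase of exon, levels were low throughout. In the 12-week WT aortae, *Mcm5*, a subunit of the MCM helicase, stood highest at 1.35 ± 0.16 RPKM (SD, n = 5), followed by *Mki67*, which encodes the proliferation antigen Ki-67, at 1.24 ± 0.39. *Rrm2*, the small subunit of ribonucleotide reductase, was at 0.802 ± 0.197, *Top2a*, the topoisomerase that untangles sister chromatids, at 0.780 ± 0.349, and *Ccnb2*, a B-type cyclin, at 0.697 ± 0.259. *Ccna2*, the cyclin of S phase and G2, was at 0.572 ± 0.145 RPKM. These 6 genes stood above *Birc5* (survivin, of the chromosomal passenger complex) at 0.232 ± 0.128, *Cdk1* at 0.205 ± 0.107, *Bub1* (a spindle checkpoint kinase) at 0.143 ± 0.087 and *Ccnb1* at 0.0822 ± 0.0441. In the 8-week WT aortae the order began again with *Mcm5* (2.19 ± 0.43 RPKM, n = 4) and *Mki67* (1.79 ± 0.62) and ended with *Ccnb1* (0.317 ± 0.174) and *Bub1* (0.310 ± 0.180). Neighbours in either order differed by less than the sum of their SDs, except *Ccna2* and *Birc5* at 12 weeks and *Birc5* and *Ccnb1*, neighbours at 8 weeks. All further levels are CPM and serve to compare libraries for 1 gene.

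In the HDR WT, PE2 WT and peg/peg groups the median spread between libraries was wider for these genes than over all genes. This spread includes counting error, and the genes were not matched for level. The median coefficient of variation of the 10 genes was 41% in the HDR WT group, where the median over all 18094 genes was 22.2%. It was 34% against 17.8% in the PE2 WT group and 66.6% against 25.5% in the peg/peg group. In the sg/sg group it was 23.3% against 22.7%. In 3 of the groups most of the genes were highest or lowest in the same library: HDR WT library 6 was the highest of its group for 8 of the 10, PE2 WT replicate 1 for 8, and peg/peg replicate 3 for 10. PE2 WT replicate 3 was the lowest of its group for 9 and peg/peg replicate 4 for 9. The sg/sg group had no such library, its highest values being spread over all 5 libraries (1 to 4 genes each) and its lowest over 4.

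**Figure D1:**
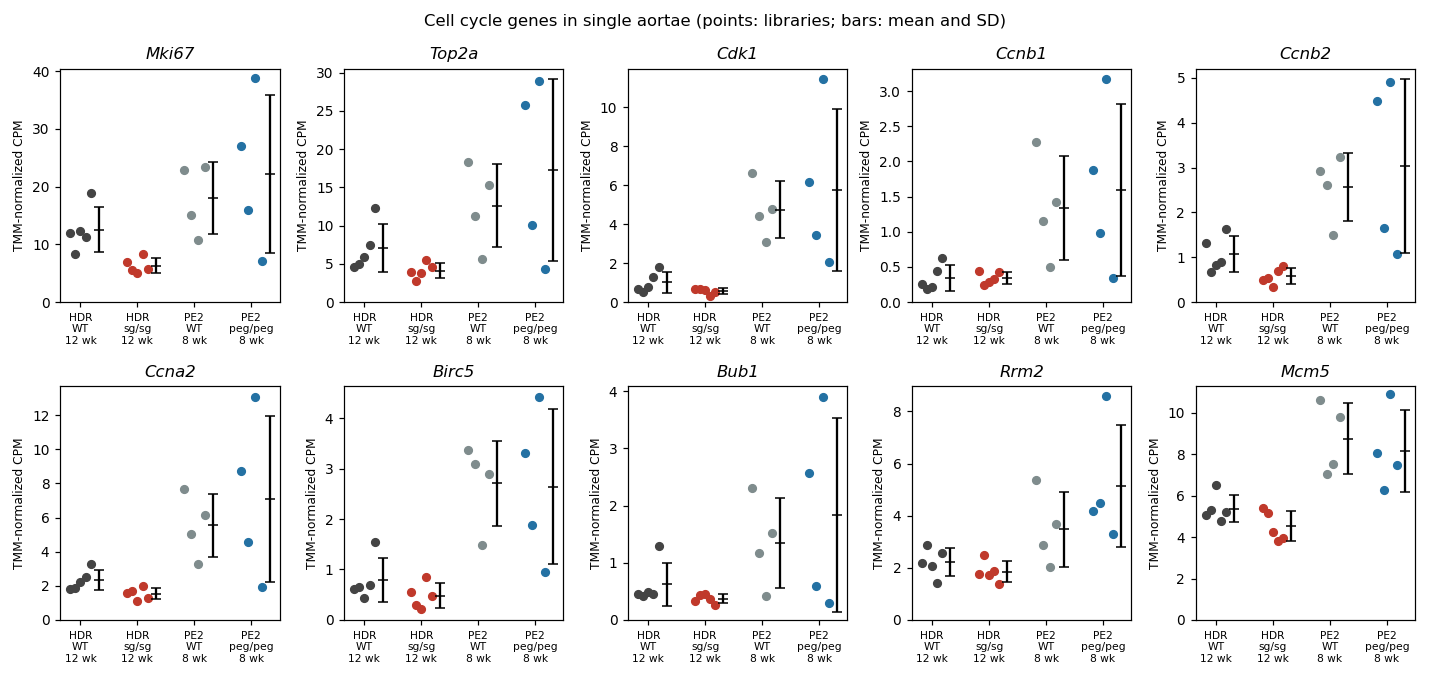
TMM-normalized CPM (linear axes from 0) of each of the 10 cell cycle genes in the 18 libraries, with 1 panel per gene; each point is 1 library and the black bars give the group mean and SD. The 4 peg/peg libraries are spread widely (*Mki67* from 7.11 to 38.8 CPM), and the 5 sg/sg libraries are the tightest and lowest group for *Mki67* (4.99 to 8.24 CPM).

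The first comparison asked whether the HDR edit went with a change of these transcripts. *Mki67* was at 11.9, 8.26, 12.3, 11.2 and 18.9 CPM in the HDR WT libraries 2 to 6 and at 6.97, 5.56, 4.99, 8.24 and 5.68 CPM in the sg/sg libraries 2 to 6. All 5 sg/sg libraries lay below all 5 WT libraries, with a log2 fold change of -1.0 ± 0.22 (unadjusted p = 7.0e-04, adjusted p = 1.00, edgeR), and an exact two-sided permutation test of the CPM gave p = 0.00794, the smallest it can give. No other of the 10 genes had groups without overlap, and 0.177% of all tested genes lay lower without overlap. The other genes of mitosis overlapped between the groups. *Top2a* was at 4.61, 4.91, 5.88, 7.46 and 12.3 CPM in WT and at 3.92, 2.73, 3.81, 5.48 and 4.55 CPM in sg/sg (log2 fold change -0.79 ± 0.29, unadjusted p = 0.0192). *Ccnb2* was at 1.32, 0.661, 0.834, 0.889 and 1.63 CPM against 0.498, 0.537, 0.336, 0.702 and 0.804 CPM (-0.89 ± 0.33, unadjusted p = 0.0194). Both pairs of groups overlapped, with 4 of 5 sg/sg libraries below every WT library for *Top2a* and 3 of 5 for *Ccnb2*. *Cdk1* differed by -0.85 ± 0.38 (unadjusted p = 0.0439), *Ccna2* by -0.61 ± 0.24 (unadjusted p = 0.0281) and *Birc5* by -0.72 ± 0.43 (unadjusted p = 0.122). *Ccnb1* had nearly equal means, 0.345 CPM in sg/sg and 0.347 CPM in WT, and *Bub1* means of 0.372 and 0.621 CPM. The exact permutation test gave p = 0.0317 for *Top2a*, *Ccnb2* and *Ccna2*, 0.0476 for *Bub1*, 0.103 for *Cdk1* and *Mcm5*, 0.198 for *Birc5*, 0.246 for *Rrm2* and 0.976 for *Ccnb1*, before any correction over genes. The genes of S phase showed smaller differences, -0.27 ± 0.24 for *Rrm2* and -0.26 ± 0.16 for *Mcm5*, with unadjusted p of 0.286 and 0.139.

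None of these differences passed the correction over all genes. Of the 10 genes, 8 passed the filter on low counts, *Ccnb1* and *Bub1* falling short with 4 to 15 and 5 to 31 reads per library. Of the 8, 0 were called at an adjusted p under 0.05 by edgeR, by DESeq2 or by limma-voom, in a comparison in which edgeR called 0.00609% and DESeq2 0.00933% of all genes tested. At an unadjusted p under 0.05, 5 of the 8 were lower, against 1.63% of all tested genes, and all 8 log2 fold changes were negative, as were 49.1% over all genes, with a median of -0.76 where the median over all genes was 0.003. The lower values in sg/sg rested in part on 1 WT library. Without HDR WT library 6, the count at an unadjusted p under 0.05 went from 5 to 1, against 0.863% of all genes, and the median of the 8 from -0.76 to -0.47. Without sg/sg library 4 or 6 or WT library 5 the count was 3. Without WT library 6 the difference was -0.80 for *Mki67*, -0.48 for *Top2a*, -0.53 for *Cdk1* and -0.31 for *Birc5*. The 6 macrophage markers (*Adgre1*, *Csf1r*, *Cd68*, *Lyz2*, *Mrc1* and *C1qa*) moved with the cell cycle genes: 6 of 6 had negative fold changes, 5 of 6 at an unadjusted p under 0.05 and 0 called, with a median of -0.71, and 2 of 6 at a median of -0.39 without library 6. Their summed level ran from 219.9 to 616.0 CPM in WT, with the highest value again in library 6, and from 167.4 to 319.6 CPM in sg/sg, and none of the 6 was near 0 in any library. Other lists moved too. Of the tested markers, 2 of 3 of cardiac muscle were lower and 3 of 6 of skeletal muscle higher at an unadjusted p under 0.05, and erythroid (5 of 5, median -0.94), adipocyte (5 of 5, median -0.48) and Schwann cell markers (4 of 4, median -0.38) had negative fold changes with 0 below that p. Without library 6, which was the highest HDR WT library for these last lists as well, their medians were -0.28, -0.063 and -0.048. The part of any of these lists in the result was not tested.

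The PE2 edit was compared in the same way. *Mki67* was at 22.9, 15.1, 10.7 and 23.4 CPM in the PE2 WT replicates 1 to 4 and at 27.0, 15.9, 38.8 and 7.11 CPM in the peg/peg replicates 1 to 4. *Top2a* was at 18.3, 11.3, 5.62 and 15.3 CPM in WT and at 25.8, 10.1, 28.9 and 4.37 CPM in peg/peg. The peg/peg values enclosed the WT values for both genes, with 2 of 4 peg/peg libraries above every WT library and 1 below. *Cdk1* was at 6.65, 4.44, 3.09 and 4.78 CPM in WT and at 6.16, 3.42, 11.4 and 2.05 CPM in peg/peg, and *Rrm2* was at 5.38, 2.86, 2.01 and 3.67 CPM against 4.18, 4.47, 8.59 and 3.30 CPM. The log2 fold changes were 0.30 ± 0.50 for *Mki67*, 0.45 ± 0.60 for *Top2a*, 0.29 ± 0.52 for *Cdk1* and 0.56 ± 0.41 for *Rrm2*, of which only that of *Rrm2* was larger than its standard error. All 10 genes were tested, and 0 were called by edgeR, DESeq2 or limma-voom, in a comparison in which edgeR called 0.0061% and DESeq2 0.189% of all genes tested. At an unadjusted p under 0.05 the count was also 0, against 4.3% of all genes. The fold changes were positive for 8 genes and negative for *Birc5* (-0.03 ± 0.49) and *Mcm5* (-0.10 ± 0.23), with a median of 0.29; over all genes 52.2% were positive, with a median of 0.013. Without peg/peg replicate 3, the library with the cardiac and skeletal muscle transcripts, 2 were positive and 8 negative, with a median of -0.18, and 0 were called. Cardiac muscle markers moved with the genotype (3 of 4 tested higher at an unadjusted p under 0.05, also without peg/peg replicate 3), as did markers of thymocytes and T cells in the opposite direction (4 of 8 tested lower, and 4 of 9 without that library). The thymocyte and T cell markers summed to 5.42 to 24.2 CPM in WT and 4.48 to 17.5 CPM in peg/peg, with *Ptcra* at 0 to 3 reads per library, and the cardiac markers to 10.98 to 77.7 CPM and 18.8 to 1027 CPM. Their part in the result was not tested.

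The direct test of whether the genotype difference was unequal in the experiments, the interaction over all 18 libraries, called 0 of the 10 genes, and 0% of all 18094 genes, with edgeR; DESeq2 called 0.0477% of all and 0 of the 10, and limma-voom called 0 of the 10. All 10 interaction terms were positive, from 0.15 ± 0.26 for *Mcm5* to 1.29 ± 0.52 for *Mki67*, with a median of 1.04, where 48.9% of all genes had positive terms. Of the 10, *Mki67* alone had an unadjusted p under 0.05 (unadjusted p = 0.0243, adjusted p = 0.951), against 5.13% of all genes. Without peg/peg replicate 3, 8 terms were positive with a median of 0.49, and *Mki67* no longer passed the unadjusted threshold. The same happened without HDR WT library 6, where the median was 0.79, and without PE2 WT replicate 3, where it was 0.84. Without PE2 WT replicate 1 or without peg/peg replicate 2 the count at an unadjusted p under 0.05 was 3, and without peg/peg replicate 4 it was 6. At an unadjusted p under 0.05, 5 of 6 macrophage, 2 of 5 fibroblast and 3 of 4 cardiac muscle markers had positive terms, 2 of 6 skeletal muscle markers positive and 2 negative, and 1 of 10 thymocyte and T cell markers a negative one. When peg/peg replicate 3 was left out, the macrophage count was 0, the fibroblast count 1 and the cardiac count 3. The part of these lists was not tested.

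**Figure D2:**
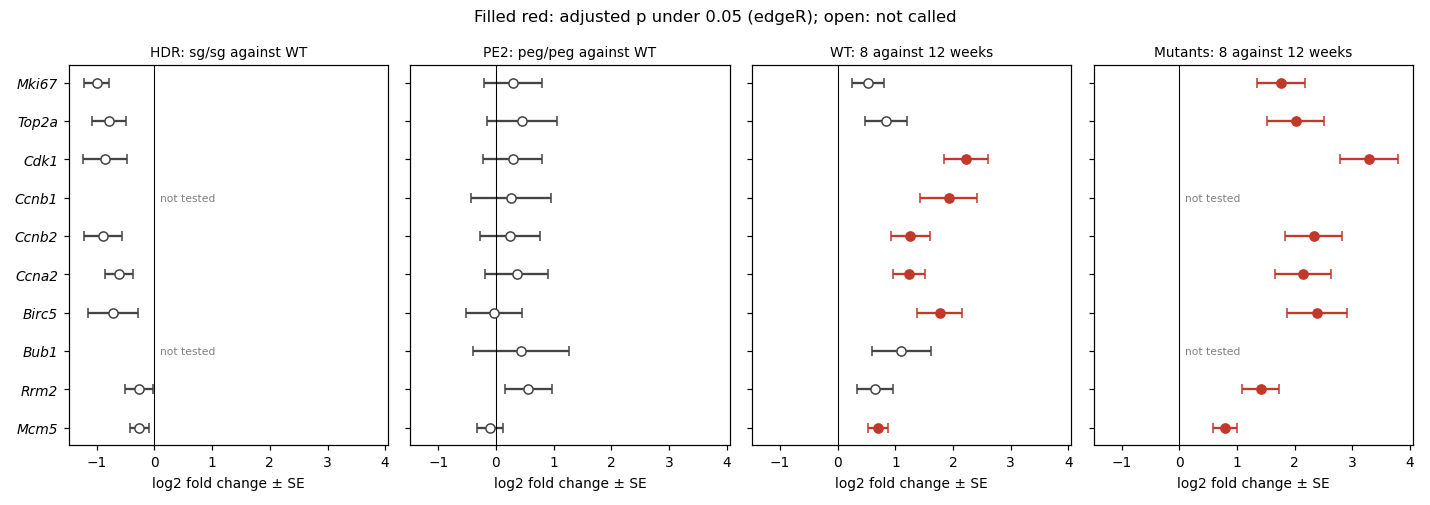
Log2 fold change ± SE of each cell cycle gene in 4 comparisons (x axis, log2 scale), with filled red points for an adjusted p under 0.05 (edgeR) and open points for genes not called. No point is filled in either genotype comparison, 6 of 10 are filled for WT at 8 against 12 weeks and 8 of 8 for mutants at 8 against 12 weeks.

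The WT libraries were then compared between the experiments, 4 of 8 weeks against 5 of 12 weeks. Age, strain label, experiment and depth differ together here and cannot be told apart, and the comparison uses the same WT libraries as the genotype comparisons. The largest difference was that of *Cdk1*, the kinase that starts mitosis, which was at 6.65, 4.44, 3.09 and 4.78 CPM at 8 weeks and at 0.659, 0.519, 0.790, 1.28 and 1.80 CPM at 12 weeks. The groups did not overlap, and *Cdk1* was 4.66-fold higher at 8 weeks (log2 fold change 2.22 ± 0.38, adjusted p = 4.65e-04, edgeR). Its cyclin partners were also higher: *Ccnb1* by 1.93 ± 0.49 (adjusted p = 0.00597), *Ccnb2* by 1.26 ± 0.34 (adjusted p = 0.00783) and *Ccna2* by 1.24 ± 0.28 (adjusted p = 0.00282) on the log2 scale. *Ccna2* was at 7.68, 5.01, 3.29 and 6.16 CPM at 8 weeks against 1.82, 1.84, 2.24, 2.52 and 3.26 CPM at 12 weeks, and its groups met without overlapping. *Ccnb1* ranged from 0.503 to 2.28 CPM at 8 weeks and from 0.189 to 0.627 CPM at 12 weeks, and *Ccnb2* from 1.49 to 3.24 CPM and from 0.661 to 1.63 CPM, so that 3 of 4 libraries of 8 weeks lay above every library of 12 weeks for each. *Birc5* was at 3.38, 3.09, 1.49 and 2.89 CPM against 0.608, 0.661, 0.439, 0.692 and 1.55 CPM (log2 fold change 1.77 ± 0.39, adjusted p = 0.00254). The lowest 8-week value of *Birc5* lay just under the highest 12-week value, that of library 6.

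The S phase gene *Mcm5* was at 10.6, 7.05, 7.54 and 9.78 CPM at 8 weeks and at 5.07, 5.29, 6.50, 4.79 and 5.23 CPM at 12 weeks, without overlap (log2 fold change 0.70 ± 0.17, adjusted p = 0.00507, edgeR). *Rrm2* (0.65 ± 0.32, adjusted p = 0.0988), *Bub1* (1.11 ± 0.51, adjusted p = 0.0847), *Top2a* (0.84 ± 0.36, adjusted p = 0.0659) and *Mki67* (0.53 ± 0.27, adjusted p = 0.119) did not pass the threshold. Their groups overlapped, *Mki67* for instance at 10.7 to 23.4 CPM against 8.26 to 18.9 CPM. In all, 6 of the 10 genes were called, each higher at 8 weeks. The comparison called 59.7% of all tested genes and 29% as higher. *Ccnb1*, among the 6, had 4 to 15 reads in the 12-week WT libraries and did not pass the filter among the HDR libraries alone. It entered this comparison with the deeper 8-week libraries, in which it was higher. With at least 10 counts in every library 8 were tested and 5 called, where 58% of all genes were called. No gene of the 10 was lower, the median difference was 1.17 against 0.020 over all genes, of which 50.7% were positive, and 3 of the 10 were higher without overlap where 23.4% of all genes were. Libraries decided part of this count: without PE2 WT replicate 3, the lowest for 9 genes, 10 of 10 were called, and without HDR WT library 6, the highest for 8 genes of its group, 9 of 10 were called. Thinning the PE2 counts to the HDR median depth left 6 called. Smooth muscle markers (3 of 6 called higher), endothelial markers (3 of 5) and B cell markers (2 of 4 tested) differed between the same groups, and the macrophage markers gave 0 called higher and 1 called lower of 6. The smooth muscle markers summed to 26503 to 46394 CPM at 8 weeks and 19055 to 26900 CPM at 12 weeks; their part in the result was not tested.

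The mutants gave a like contrast in 9 libraries that the WT comparison does not hold, from the same experiments. Age, strain label, experiment and depth again differ together. The edit differs too, and the labels list 4 females against 3 females and 2 males. None of these can be told apart. *Cdk1* was at 6.16, 3.42, 11.4 and 2.05 CPM in peg/peg at 8 weeks and at 0.663, 0.683, 0.617, 0.328 and 0.536 CPM in sg/sg at 12 weeks, a 9.77-fold difference without overlap (log2 fold change 3.29 ± 0.51, adjusted p = 4.73e-04, edgeR). *Birc5* was 2.39 ± 0.52 higher on the log2 scale, *Ccnb2* 2.33 ± 0.50, *Ccna2* 2.14 ± 0.48, *Top2a* 2.02 ± 0.49, *Mki67* 1.76 ± 0.41, *Rrm2* 1.41 ± 0.32 and *Mcm5* 0.79 ± 0.21. All 8 genes that passed the filter were called higher, with adjusted p from 4.73e-04 to 0.0113, in a comparison that called 51.5% of all tested genes and 23.3% as higher, and in which 50.3% of all fold changes were positive. Groups did not overlap for 5 of the 10 (*Cdk1*, *Ccnb2*, *Birc5*, *Rrm2* and *Mcm5*), against 19.5% of all genes. *Ccnb1* and *Bub1* did not pass the filter; with no filter beyond 1 count they were higher by 2.19 ± 0.57 (adjusted p = 0.0108) and 2.27 ± 0.64 (adjusted p = 0.0167). The median of the 8 was 2.08, and over the 8 or 10 genes that passed the filter it ran from 1.71 without peg/peg replicate 3 to 2.52 without peg/peg replicate 4, and at least 8 genes were called without any 1 library. In sg/sg, *Cdk1* had 7 to 14 reads per library, *Ccnb2* 6 to 15 and *Birc5* 4 to 18. A filter of at least 10 counts in every library left these genes out. It left 5 genes tested and 5 called, where 49.9% of all genes were called. With limma-voom 6 of 8 were called, *Mki67* (adjusted p = 0.0539) and *Top2a* (adjusted p = 0.0828) being lost. Macrophage (3 of 6), fibroblast (2 of 5), cardiac muscle (3 of 3 tested) and Schwann cell markers (3 of 4) were also called higher at 8 weeks. Of 6 skeletal muscle markers 2 were called higher and 2 lower, and of 6 tested thymocyte and T cell markers 1 was called lower. Without peg/peg replicate 3 the macrophage, fibroblast, cardiac and Schwann cell counts were 3, 2, 3 and 4, with 5 of 5 erythroid markers beside them. In that fit 1 macrophage, 1 fibroblast, 2 skeletal muscle and 2 thymocyte and T cell markers were called lower. The macrophage markers summed to 250.4 to 739.3 CPM in peg/peg and 167.4 to 319.6 CPM in sg/sg, and the cardiac markers to 18.8 to 1027 CPM and 5.15 to 18.3 CPM; their part in the result was not tested. Whether the difference between the experiments was larger in mutants than in WT is the interaction given above, which called 0 of the 10 genes.

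The length of a gene moved with the difference between the experiments. When the tested genes were divided into 5 groups by exon length (Gencode M21), the median log2 fold change at 8 against 12 weeks in WT was 0.44 in the shortest group (up to 2076 bp), then 0.37, 0.19 and -0.06, and -0.58 in the longest group (from 7079 bp). In the mutants the medians were 0.43, 0.34, 0.15, -0.06 and -0.54. Within the HDR and PE2 genotype comparisons they stayed between -0.07 and 0.09. The 2 longest of the 10 genes, *Mki67* (10061 bp) and *Top2a* (9013 bp), belong to the group in which 7.18% of genes were called higher in WT, and *Ccnb2* (1531 bp) to the group in which 40.8% were. Against the median of its length group, *Mki67* was 1.11 higher in WT and *Top2a* 1.42, beside 2.28 for *Cdk1* (4934 bp), 0.83 for *Ccnb2* and 0.28 for *Rrm2* (2771 bp). TMM factors computed within 20 bins of exon length, an alternative chosen after this trend had been seen, changed 3 of the 10 calls in WT. *Mki67* (1.09 ± 0.28, adjusted p = 0.00842) and *Top2a* (1.26 ± 0.39, adjusted p = 0.0196) were then called higher, and *Ccnb2* (0.55 ± 0.33, adjusted p = 0.188) was not. The count became 7 of 10, where 49.2% of all genes were called, and in the mutants it remained 8 of 8, where 40.1% were. *Cdk1* kept the largest difference of the tested genes of the set in both, 2.17 ± 0.38 in WT and 3.34 ± 0.50 in mutants. The cause of the trend was not tested.

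**Figure D3:**
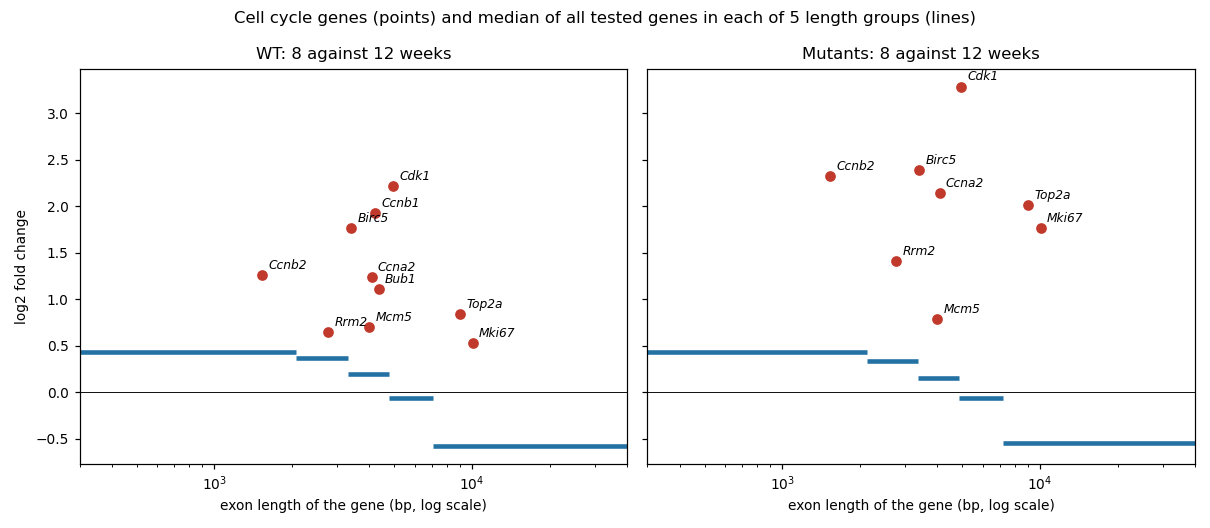
Log2 fold change at 8 against 12 weeks (y axis) of the cell cycle genes (red points) by exon length (x axis, bp, log scale), with blue lines for the median of all tested genes in each of 5 length groups, in WT (left) and mutants (right). The lines step down from 0.44 to -0.58 in WT and from 0.43 to -0.54 in mutants, and every red point lies above the line of its length group.

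Other genes of the cell cycle are set beside all tested genes, of which 29% were called higher and 30.6% lower at 8 weeks in WT, and 23.3% higher and 28.3% lower in mutants. Of 44 further genes of G2 and mitosis, 27 were called higher at 8 weeks in WT and 1 lower, with a median of 1.11, and 31 of the 41 tested in mutants were called higher and 0 lower, with a median of 1.56. The mutant counts were 26 and 1, with a median of 1.21, when peg/peg replicate 3 was left out. The genes called higher in both numbered 24. They include *Cdc20* (1.82 ± 0.27 in WT, 1.59 ± 0.32 in mutants), the activator of the anaphase-promoting complex, *Kif20a* (1.69 ± 0.33 and 2.27 ± 0.42), a kinesin of cytokinesis, and *Cdca3* (1.88 ± 0.33 and 2.85 ± 0.42), on the log2 scale. *Kif2c*, a kinesin that depolymerizes microtubules, was 2.24 ± 0.39 higher in WT, and *Smc2*, of the condensin complex, was the gene called lower, by -0.62 ± 0.20. The 25 tested of 26 genes of S phase and replication gave 11 called higher and 1 lower in WT, and 8 higher and 2 lower in mutants, with medians of 0.43 and 0.38, so that the mutant count of higher genes lay near the share over all genes. *Tk1*, thymidine kinase, led these (1.63 ± 0.33 in WT, 2.09 ± 0.40 in mutants), *Pcna*, the sliding clamp, was higher by 0.69 ± 0.19 and 0.75 ± 0.22, and *Pola1*, of DNA polymerase alpha, was lower in both (-1.30 ± 0.14 and -1.20 ± 0.14). *Orc1* had too few reads for the test. Among the HDR libraries alone, 35 of the 44 genes of G2 and mitosis passed the filter on low counts. The others entered the WT comparison with the deeper 8-week libraries. Other settings were run over these lists, the G1 regulators and the CDK inhibitors together. The main setting called 46 of 92 tested genes higher and 8 lower in WT, and 47 and 7 of 88 in mutants. Of all genes it called 59.7% and 51.5%. With at least 10 counts in every library, WT gave 33 and 9 of 77, where 58% of all genes were called. Mutants gave 32 and 7 of 67, where 49.9% were. Within 20 bins of exon length, WT gave 36 and 6 of 92, where 49.2% of all genes were called. Mutants gave 44 and 5 of 88, where 40.1% were. With limma-voom the counts were 47 and 7 of 92 in WT and 37 and 8 of 88 in mutants. Of all genes it called 60.1% and 49.8%.

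The G1 regulators were called in both directions, in WT at about the share of all genes. Of 17 such genes, 5 were called higher and 5 lower in WT, against 29% and 30.6% of all genes. Of the 16 tested in mutants, 6 were called higher and 4 lower, against 23.3% and 28.3%. *Cdk4* (0.88 ± 0.08 in WT, 0.75 ± 0.13 in mutants), a kinase of G1, *Ccnd3* (0.86 ± 0.12 and 0.73 ± 0.11), a D-type cyclin, and *E2f1* (0.81 ± 0.28 and 1.44 ± 0.22), a transcription factor of S phase genes, were higher at 8 weeks. *Rb1*, which holds E2F factors inactive, was lower by -1.02 ± 0.12 in WT and -1.13 ± 0.12 in mutants, and its relative *Rbl2* by -0.45 ± 0.12 and -0.59 ± 0.10. *Cdk6* and *Ccne2* were also called lower in both. Of 6 tested inhibitors of cyclin-dependent kinases, 3 were called higher and 1 lower in WT, and 2 and 1 in mutants. *Cdkn1a* (1.24 ± 0.40 and 1.70 ± 0.40) and *Cdkn2d* (1.42 ± 0.15 and 1.18 ± 0.17) were higher at 8 weeks in both. *Cdkn1b* (-0.35 ± 0.13 and -0.67 ± 0.12) was lower in both. *Cdkn1c* was called higher in WT alone (0.58 ± 0.13, adjusted p = 0.00325, edgeR), and *Cdkn2a* had too few reads for the test. No gene of these lists was called by genotype. In the HDR experiment 29 of 35 tested genes of G2 and mitosis had negative fold changes, with a median of -0.33, and 7 of the 35 were lower at an unadjusted p under 0.05, where 49.1% of all genes were negative and 1.63% lower at that p, *Hmmr* among them at -1.45 ± 0.34 (unadjusted p = 0.00104, adjusted p = 1.00). Without HDR WT library 6 this count was 4 and the median -0.19, and without sg/sg library 3 or 4 the count was also 4. The S phase list had a median of -0.04 there and 0 genes at an unadjusted p under 0.05. In the PE2 experiment 37 of 44 genes of G2 and mitosis had positive fold changes, against 52.2% of all genes, with a median of 0.23 and 0 at an unadjusted p under 0.05. Without peg/peg replicate 3, 18 of the 44 were positive and the median was -0.080, so that the direction rested on this library.

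**Figure D4:**
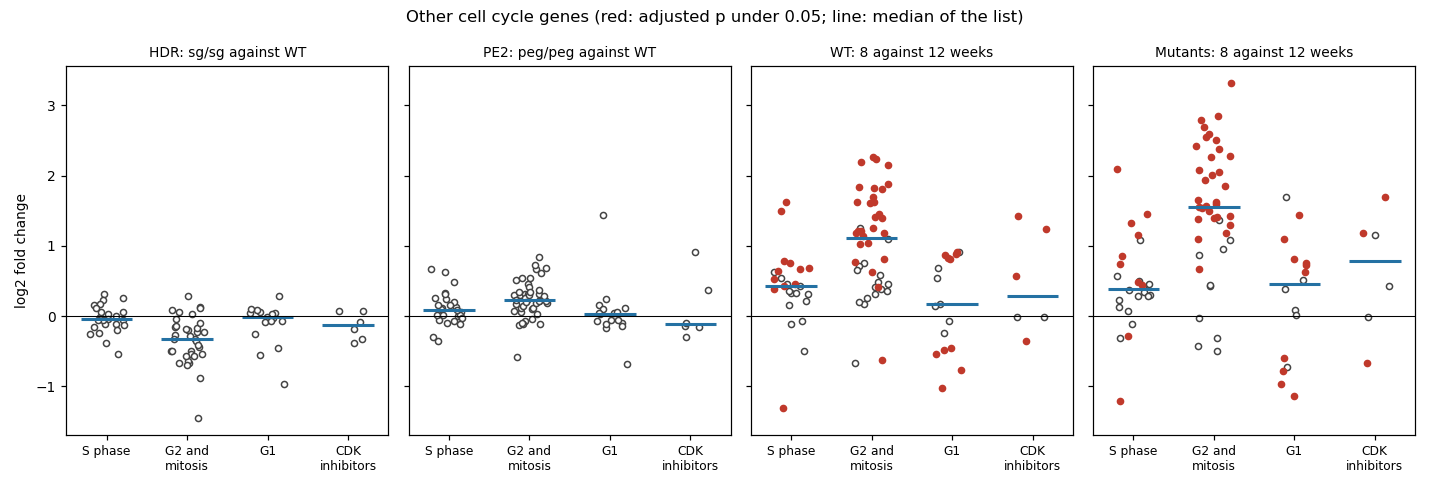
Log2 fold change (y axis) of other cell cycle genes in 4 lists and 4 comparisons, with 1 point per gene, red where the adjusted p was under 0.05, and a blue line at the median of the list. Red points appear in the 8 against 12 week comparisons, where the G2 and mitosis medians are 1.11 in WT and 1.56 in mutants, and none in the genotype comparisons.

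Across the 18 libraries, after each value was centred on its group mean, the 10 genes followed each other with Pearson r between 0.54 (*Mcm5*) and 0.97 (*Bub1*) for each gene with the mean of the other 9, a description over libraries that share 2 experiments and 4 groups. *Rrm2* stood at 0.69 and the other 8 genes at 0.87 or above, with *Ccna2*, the cyclin of S phase and G2, at 0.96. Most of the 10 are genes of G2 and mitosis, so that the mean leans to these by the choice of the set. The lower r of *Mcm5* and *Rrm2* is therefore no result about S phase genes. Without peg/peg replicate 3, which had the highest values of its group for all 10, r was 0.32 for *Mcm5*, 0.52 for *Rrm2* and 0.83 or above for the others. Of 14797 other genes with a mean of at least 1 CPM, the 10 most like the mean of the set were *Kntc1* (r = 0.97), *Ube2c* and *Ckap2l* (0.95 each), *Prc1* and *Kif11* (0.94 each), *Nusap1* (0.94), and *Ckap2*, *Cenpi*, *Kif20a* and *Kif4* (0.92 each), and without that library their r lay between 0.88 and 0.96. Of these, *Kntc1*, *Ckap2* and *Cenpi* were in none of the lists. *Kntc1* belongs to the complex that brings dynein to kinetochores and *Cenpi* is a centromere protein. The median r was 0.85 over 36 genes of G2 and mitosis, 0.28 over 24 of S phase and replication and -0.05 over all 14797 genes. Among markers of cell types, the median was 0.81 for the 6 macrophage markers, 0.74 for the 5 fibroblast markers and 0.54 for 4 thymocyte and T cell markers, while it was -0.11 for smooth muscle, -0.23 for cardiac muscle, -0.30 for endothelial cells and 0.011 for erythroid cells. Without peg/peg replicate 3 these medians were 0.71 for macrophages, 0.55 for fibroblasts, 0.40 for thymocytes and T cells, -0.40 for smooth muscle, -0.49 for cardiac muscle, 0.14 for endothelial cells and 0.50 for erythroid cells, with 0.79 for G2 and mitosis and 0.16 for S phase and replication. The libraries that were high for the cell cycle genes within their group were also high for macrophage markers, at 616.0 CPM in HDR WT library 6, 453.0 CPM in PE2 WT replicate 1 and 739.3 CPM in peg/peg replicate 3, each the highest of its group. The lowest PE2 WT library for the set, replicate 3, had the lowest sum of macrophage markers of that group, 135.6 CPM. Within the same group the thymocyte and T cell markers summed to 20.7 CPM in HDR WT library 6 and to 24.2 CPM in PE2 WT replicate 1, again the highest of each group. Whether these cell types contributed cell cycle transcripts was not tested.

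**Figure D5:**
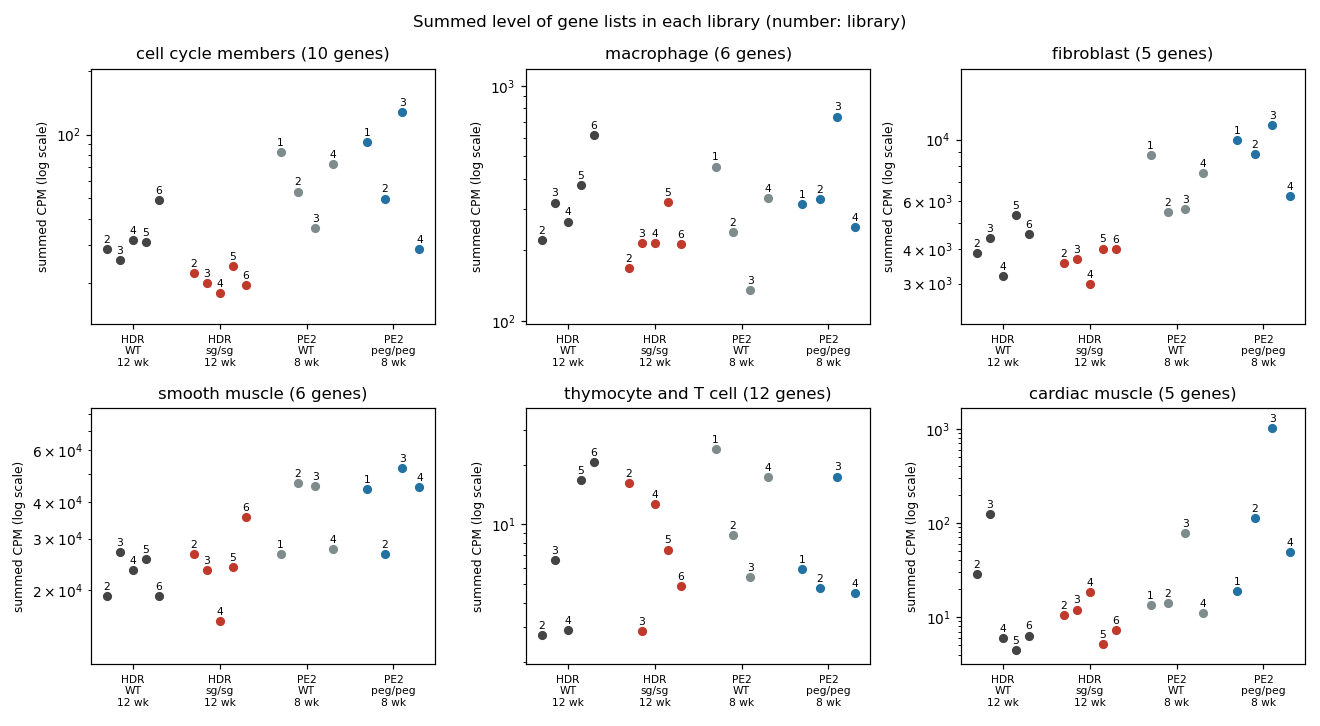
Summed TMM-normalized CPM (log axes) of the 10 cell cycle genes and of 5 lists of cell type markers in each of the 18 libraries, with the number of the library above each point. HDR WT library 6 (49.1 CPM), PE2 WT replicate 1 (82.4 CPM) and peg/peg replicate 3 (128.1 CPM) are highest for the cell cycle genes in their groups and also highest for the macrophage markers.

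Within the summed reads of the 10 genes, the portion taken by *Cdk1* differed between the experiments. It was 2.92% ± 0.92 (SD, n = 5) in HDR WT and 2.80% ± 0.86 in sg/sg, and 7.88% ± 0.86 (n = 4) in PE2 WT and 7.39% ± 1.04 in peg/peg. *Mki67* took 37.3% ± 3.4 in HDR WT and 30.2% ± 2.7 in sg/sg, and 29.5% ± 2.1 and 29.0% ± 3.2 in PE2 WT and peg/peg. *Bub1* had a like mean portion in all 4 groups, between 1.76% ± 0.50 in HDR WT and 2.05% ± 0.68 in PE2 WT. In peg/peg it was 2.00% ± 1.06, and single libraries ran from 1.01% to 3.04%. These portions carry no correction for the trend with exon length between the experiments. *Mki67* belongs to the longest length group and *Cdk1* to a shorter one, and the part of the trend in the portions was not tested. Reads of *Ccna2* and *Exosc9*, *Mki67* and *Gm45240*, and *Top2a* with *Gm26394* and *Gm23451* could not be told apart where these genes overlap, since the strand setting of the counting is not given in the sources used here and the labels name an unstranded kit where the methods name a stranded one. *Ccna2* (chr3:36564865-36572150) lies 66.2 Mb from the edited gene on the same chromosome, and the other 9 genes lie on other chromosomes, *Cdk1* at chr10:69335146-69352938, *Mki67* at chr7:135689784-135716361 and *Mcm5* at chr8:75109569-75128439 among them (GRCm38).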

How the data were processed

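Per the labels, the submitters extracted total RNA from single aortae and sequenced polyadenylated RNA, and their processing notes name STAR 2.7.0f, Subread 1.6.4 with featureCounts, DESeq2 1.22.1 and GRCm38, while the methods name the Gencode M22 annotation. The authors deposited, for each experiment, raw counts per gene symbol and a table of normalized values, a signal scale in which each count is divided by 1 size factor per library (0.883 to 1.17 in HDR, 0.940 to 1.12 in PE2). The signal values served for that check alone. The number of unused columns of per-sample values was 0.

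The 10 genes, the other lists and the tests were chosen with earlier results of these data known. Counts of each comparison were fitted across all genes with edgeR 4.0.16 in R 4.3.3 (TMM, filterByExpr, glmQLFit and glmQLFTest, no covariate), with a Benjamini-Hochberg adjusted p under 0.05 as the threshold, and single values were compared with exact permutation tests over libraries. An error after ± is the standard error for a log2 fold change and the SD for a level. Printed CPM came from 1 TMM normalization of the 18 libraries, and depth, which sets the counting error of a value, was 17290992 to 24880385 reads in HDR and 38820265 to 44895615 in PE2. RPKM was CPM per kb of exon in Gencode M21 (GRCm38), 1 release before that of the authors. Likeness was Pearson r of log2(CPM + 0.5). Alternatives were DESeq2 size factors, DESeq2 1.42.0 (Wald), limma-voom 3.58.1, robust dispersions, an adjusted p under 0.10, a filter of 1 count or of 10 counts in each library, a replicate block, females alone, thinned counts, leaving out each library and, chosen after seeing the data, normalization within 20 bins of exon length and list counts without peg/peg replicate 3 or HDR WT library 6 and likeness without the former.

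Named genes were the 10, *Tspan2*, list genes called between the ages with the smallest adjusted p (up to 6 in each direction), list genes with the highest mean CPM (3 per list), any called by genotype or without counts, and the 10 most alike; *Hmmr*, *Exosc9*, *Gm45240*, *Gm26394*, *Gm23451* and markers of single cell types were named after their values or positions were seen. On simulated counts of the HDR design (16423 genes), 54% of genes changed 2-fold and 92% of those changed 4-fold were recovered. On the PE2 design (16401 genes) the percentages were 32% and 64%. The changed genes were a random draw from all genes of each design, with 7 and 6 false calls. The tested genes of the set varied more. Their median biological coefficient of variation was 0.29 in HDR, against 0.23 over all genes, and 0.54 in PE2, against 0.28. These percentages therefore do not give the recovery of the 10 genes. Libraries of a group differed far beyond sampling noise (chi-square over its degrees of freedom at least 17.2), so none was a duplicate. The labels do not say that replicates of a group came from separate litters, and p-values cover the spread between these aortae.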

Additional observations from a re-analysis of the deposited data

Results flagged for a closer look

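Among 40 combinations of gene and group, 2 held a library farther from the others than the 95% critical value of Dixon's ratio for 5 libraries, a share that chance alone gives at about 1 in 20. Both were HDR WT library 6. *Birc5* was at 1.55 CPM there, with the next library at 0.692 CPM and a gap of 0.772 of the range of the group. *Bub1* was at 1.30 CPM, with the next library at 0.483 CPM and a gap of 0.933 of the range.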

How the results depend on the processing

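The count of called genes among the 10 was 0 under every setting run in both genotype comparisons and in the interaction, the length bins included. For WT at 8 against 12 weeks it was 6 in the main setting, 5 with at least 10 counts in every library (8 tested), 7 with no filter or within length bins, 9 at an adjusted p under 0.10, and 6 to 10 when 1 library was left out, the 10 being reached without PE2 WT replicate 3. For mutants it was 8, then 5 with at least 10 counts in every library, where 5 were tested, 6 with limma-voom, 10 with DESeq2 or with no filter, and 8 to 10 when 1 library was left out. With the replicate block, which assumes that the PE2 libraries of like number are paired, *Bub1* changed from 0.44 to -0.10 and *Ccnb1* from 0.25 to -0.016 in the PE2 comparison, 0 genes were called, and *Tspan2* (-3.50, adjusted p = 0.295) was no longer called; the deviations of like-numbered libraries correlated at -0.26 to -0.04, so the numbers are not known to pair them. *Birc5* in the PE2 comparison was at 0.013 in females alone. Leaving out 1 PE2 library gave -0.40 to 0.24 for *Birc5*, -0.24 to 0.82 for *Bub1*, -0.12 to 0.66 for *Ccna2*, -0.32 to 0.64 for *Ccnb1*, -0.094 to 0.51 for *Ccnb2*, -0.29 to 0.55 for *Cdk1*, -0.28 to 0.0095 for *Mcm5* and -0.11 to 0.58 for *Mki67*. In the interaction it gave -0.30 to 0.68 for *Ccnb1* and -0.016 to 0.27 for *Mcm5*. *Tspan2* between the WT groups was at -0.010 with DESeq2 size factors and with the Wald test, -0.041 with at least 10 counts, -0.11 within length bins and -0.17 to 0.17 when 1 library was left out. *Tspan2* in the PE2 comparison was called in 1 of 8 such fits, with adjusted p from 0.00524 to 0.224 and fold changes from -3.60 to -3.28. The cause of these changes was not tested. Depth limits *Ccnb1* and *Bub1* in the HDR libraries, with 4 to 31 reads each. It also limits *Cdk1*, *Ccnb2* and *Birc5* in sg/sg, with 7 to 14, 6 to 15 and 4 to 18 reads per library.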
